A study of Mus musculus with 192 samples.

Results

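Cells of the mouse embryonic stem (ES) line R1 were compared by how many transcripts of mitotic genes they held. The 26 wells compared were chosen from the 96 wells of a microfluidic chip, each meant to hold 1 cell: 13 mitotic-high wells and 13 mitotic-low wells. Both groups were taken as the same line, with no genetic change or treatment between them, though mitotic-low well D02 had high levels of several feeder fibroblast markers. All cells grew together in ES1 medium on irradiated mouse embryonic fibroblasts as feeders, were taken at confluency, were separated from the feeders by letting these settle, passed an annexin V depletion of dying cells, and were frozen in medium with DMSO and thawed before capture. Both groups therefore come from 1 culture, which counts as 1 sample, and no p-value was computed. Ranges given below are ranges between wells, that is, between single cells.

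The values were molecule counts per gene and well, and a level below means molecules of a gene per 10000 gene molecules of its well, with spike-ins and repeats left out of that total. Wells with at least 53000 gene molecules were 49 of 96. Of these 47 had at most 30000 spike-in molecules, 40 of those had a summed level of the keratin genes Krt8 and Krt18 under 25, and leaving out well E02 gave 39 wells. The 39 wells were ranked by the summed level of Top2a, Mki67, Cdc20, Ube2c, Cenpe, Cenpf, Plk1, Aurka, Ccna2 and Tpx2, and divided into 13 mitotic-high, 13 middle and 13 mitotic-low wells. The summed level was 24.3 in the lowest mitotic-high well (H04), against 23.9 in the highest middle well (A08), and 14.5 in the lowest middle well (H05), against 14.4 in the highest mitotic-low well (A10). The wells on either side of each border were close, so the groups are the ends of a ranking with no gap at the borders. Near the other limits, the ranked well with the fewest gene molecules (A08) had 53975, against 52812 in the nearest well below the minimum (H08). The highest keratin sum kept was 20.5 (H05), against 29.2 in the nearest well left out (G12).

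Transcripts for mitosis build up during the G2 phase, after DNA has been copied, and are removed after division. Many of them are made from promoters that carry a cell cycle genes homology region (CHR) and CCAAT boxes, where the DREAM and MuvB complexes with B-Myb and the factor NF-Y are known to act, while genes of DNA replication more often carry E2F sites. ES cells divide quickly and spend little time in G1, so a culture holds many cells in S, G2 and M phase.

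Promoter sequence is shown for the 4 ranking genes with the highest levels that have an entry in RefSeq's promoter windows (GRCm38.p6, from 250 bases before to 50 bases after the start), because the groups were chosen by these genes. Each line gives the 120 bases upstream of the start, 5′ to 3′ on the gene's strand, with capitals marking CHR (TTTGAA) and CCAAT matches on either strand.
Top2a (chr11:99024190-99024309, minus strand): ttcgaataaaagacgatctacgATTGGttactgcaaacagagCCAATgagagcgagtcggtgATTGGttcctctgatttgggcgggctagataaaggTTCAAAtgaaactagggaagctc
Ube2c (chr2:164769809-164769928, plus strand): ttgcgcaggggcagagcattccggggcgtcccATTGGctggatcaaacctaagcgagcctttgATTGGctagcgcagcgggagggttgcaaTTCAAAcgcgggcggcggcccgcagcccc
Cdc20 (chr4:118437344-118437463, minus strand): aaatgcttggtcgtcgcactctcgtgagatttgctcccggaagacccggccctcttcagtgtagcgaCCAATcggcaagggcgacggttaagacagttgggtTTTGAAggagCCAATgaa
Aurka (chr2:172370571-172370690, minus strand): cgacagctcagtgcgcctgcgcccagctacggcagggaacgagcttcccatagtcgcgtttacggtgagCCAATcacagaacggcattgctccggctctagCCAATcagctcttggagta
In Top2a, Ube2c and Cdc20 a CHR match lay close to the start with a CCAAT match upstream of it, and in Aurka the CHR match of the window lay after the start.

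Over whole windows, CHR was found in 7 of the 8 ranking genes with an entry, in 66.7% of the 24 other G2 and M genes with an entry that were higher in mitotic-high wells by the rule given below, in 36.5% of 52 measured G2 and M genes that were not, and in 13.3% of 30 measured S phase genes. The share among all 27025 windows was 18.1%. CCAAT matches were found in all 8 ranking genes, in 70.8% of the higher G2 and M genes, in 61.5% of the others and in 70% of the S phase genes, against 37.9% of all windows. E2F-type matches (TTTCCCGC, TTTGGCGC or TTTCGCGC, none of which contains a CHR or CCAAT spelling) were found in none of the 8 ranking genes, in 8.33% of the higher G2 and M genes, in 9.62% of the others and in 23.3% of the S phase genes, against 1.91% of all windows. A match describes the letters of these windows and does not show that a factor was bound.

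Mitotic-high wells held 83061 to 122353 gene molecules (median 97204), against 55334 to 106057 (median 95737) in mitotic-low wells, and the middle wells had a median of 118749. Spike-in molecules had medians of 8136 in mitotic-high wells and 7775 in mitotic-low wells. The median share of mitochondrial transcripts was 10.5% in mitotic-high wells and 10.1% in mitotic-low wells. Of 12 ES cell markers none was at 0 throughout either group, and their summed level ran from 36.8 to 227.4 (median 125.6) in mitotic-high wells and from 23.5 to 155.2 (median 104.9) in mitotic-low wells. Dppa5a weighed heavily in this sum, with medians of 95.3 in mitotic-high wells and 62.1 in mitotic-low wells. By medians 8 of the 12 markers were higher and 4 lower in mitotic-high wells. Of 9 trophectoderm markers, Elf5, Hand1 and Gata3 were at 0 in both groups, Cdx2 was found in 1 mitotic-high well and Eomes in 6 mitotic-high and 3 mitotic-low wells, while Krt8 and Krt18 were found in all wells. Their summed level was 1.80 to 3.60 (median 2.68) in mitotic-high wells and 2.13 to 7.23 (median 3.55) in mitotic-low wells. Krt8 and Krt18 weighed heavily in this sum, and the choice of wells had already limited these genes to a summed level under 25. Of 9 primitive endoderm markers, Gata6 and Sox17 were at 0 in both groups, Gata4 was found in 1 mitotic-high well, Dab2 in 5 wells of each group, and Lamb1 in 13 mitotic-high and 12 mitotic-low wells. Their summed level was 0.21 to 2.02 (median 0.48) in mitotic-high wells and 0.20 to 3.43 (median 0.38) in mitotic-low wells. The part of these markers in the results was not tested.

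Well D02 stood apart from all others. It had the lowest summed level of ranking genes (7.05), the fewest gene molecules of the mitotic-low wells (55334) and the lowest ES marker sum (23.5). The summed level of 13 feeder fibroblast markers was 155.6 in D02 and 24.5 in A03, the next highest mitotic-low well, against a range of 4.21 to 11.6 (median 5.06) in mitotic-high wells and a median of 6.08 in all mitotic-low wells. In D02 the levels of Lgals1 (73.2), S100a6 (43.4), Tagln (22.2) and Tnc (11.6) were high, while the fibroblast collagen genes Col1a1 and Col3a1 and the surface marker gene Thy1 were at 0 in all mitotic-low wells. Its ES markers were mixed. Sall4 (0) and L1td1 (0.18) were below the mitotic-low medians of 1.06 and 3.30. Nanog (0.72) and Zfp42 (2.89) were near those of 0.66 and 2.93. Whether D02 held an ES cell, a feeder cell or both was not tested. Results that rest on D02 are given below with and without it.

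The ranking genes themselves, which chose the groups, are described without a test. Top2a, the topoisomerase that untangles sister DNA, had levels of 2.21 to 9.84 (median 7.03) in mitotic-high wells and 1.45 to 5.01 (median 2.43) in mitotic-low wells. Ube2c, the ubiquitin carrier of the anaphase-promoting complex, ran from 3.61 to 11.1 (median 5.70) in mitotic-high wells and from 1.03 to 4.09 (median 2.32) in mitotic-low wells. Both genes gave much of the sum, and Top2a alone made up a median of 27.4% of it in mitotic-high wells and 24.1% in mitotic-low wells. Cenpf, an outer kinetochore protein that gathers in G2, averaged 2.73 in mitotic-high wells and 0.87 in mitotic-low wells. Mki67, which coats mitotic chromosomes, averaged 1.09 in mitotic-high wells and 0.29 in mitotic-low wells. Of the mitotic kinase genes, Plk1 averaged 1.18 in mitotic-high wells and 0.55 in mitotic-low wells, and Aurka averaged 2.48 in mitotic-high wells and 1.32 in mitotic-low wells. Cyclin A2 (Ccna2), which also serves S phase, differed least of the 10, with means of 1.01 in mitotic-high wells and 0.64 in mitotic-low wells.

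**Figure D1:**
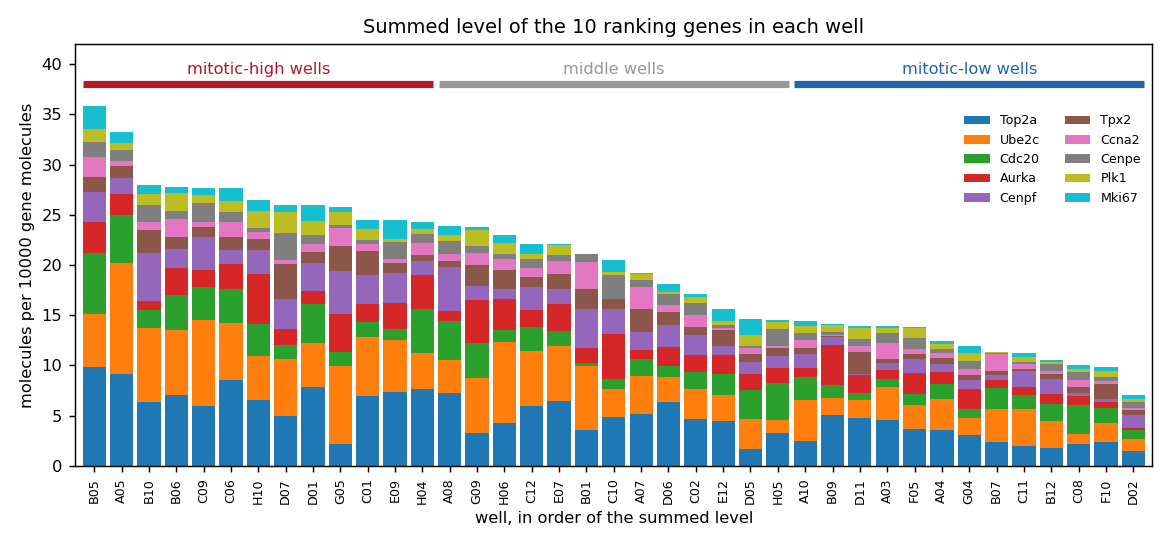
Summed level of the 10 ranking genes in each of the 39 ranked wells, with the share of each gene stacked (vertical axis: molecules per 10000 gene molecules; horizontal axis: wells from the highest sum, at left, to the lowest). The sum is 35.8 in B05 at the left end and 7.05 in D02 at the right end, and Top2a and Ube2c are the tallest parts in most wells.

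Each ranking gene was also looked at with itself left out of the ranking, so that the other 9 genes chose the wells. The fold, mean level in mitotic-high over mean level in mitotic-low wells with 0.05 added to both, was then 2.41 for Cenpf, 2.31 for Ube2c, 2.22 for Mki67, 1.99 for Top2a, 1.98 for Tpx2 and 1.92 for Plk1. Aurka was at 1.65, Ccna2 at 1.54, Cdc20 at 1.50 and Cenpe at 1.49. All 10 genes stayed higher in wells that the others put on top, and 11 to 13 of the 13 wells of each group were the same as in the full ranking. For Ccna2 all 13 wells of each group were the same, so its fold did not change. These folds describe the ranking genes and are not an independent test of the ranking.

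For all other genes a rule of size was used. A gene was counted where its mean level over both groups was at least 0.5, about 4.84 molecules per well, and was called higher or lower where the fold was at least 1.5 in either direction with all wells and again without the highest well of the higher group. Of 2807 genes counted, 158 (5.63%) were higher and 96 (3.42%) were lower in mitotic-high wells, and the median fold was 1.00. Levels did not overlap between the groups for 0 genes (0%). Even the gene with the cleanest separation had the mitotic-high well above the mitotic-low well in 91.1% of the 169 pairs of wells. In 139 of the 158 higher genes and 86 of the 96 lower genes the middle wells averaged between the other groups. Without D02 the rule called 137 higher and 83 lower genes, of which 126 and 64 were among those called with it. Scaling by spike-in molecules in place of gene molecules gave 184 higher and 53 lower genes.

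Other genes of G2 and M phase passed as higher more often than all genes did, though most of them did not pass. Of 193 genes on lists for this phase 97 were counted, and 29 of them (29.9%) were higher and 1 (1.03%) was lower, with a median fold of 1.33, against 5.63%, 3.42% and 1.00 over all genes. Fold was above 1 for 79 of the 97. Without D02, 26 were higher and 2 lower, and the median was 1.29. The lists were drawn up with earlier results of these data known, so these counts describe the cells and are not an independent test.

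**Figure D2:**
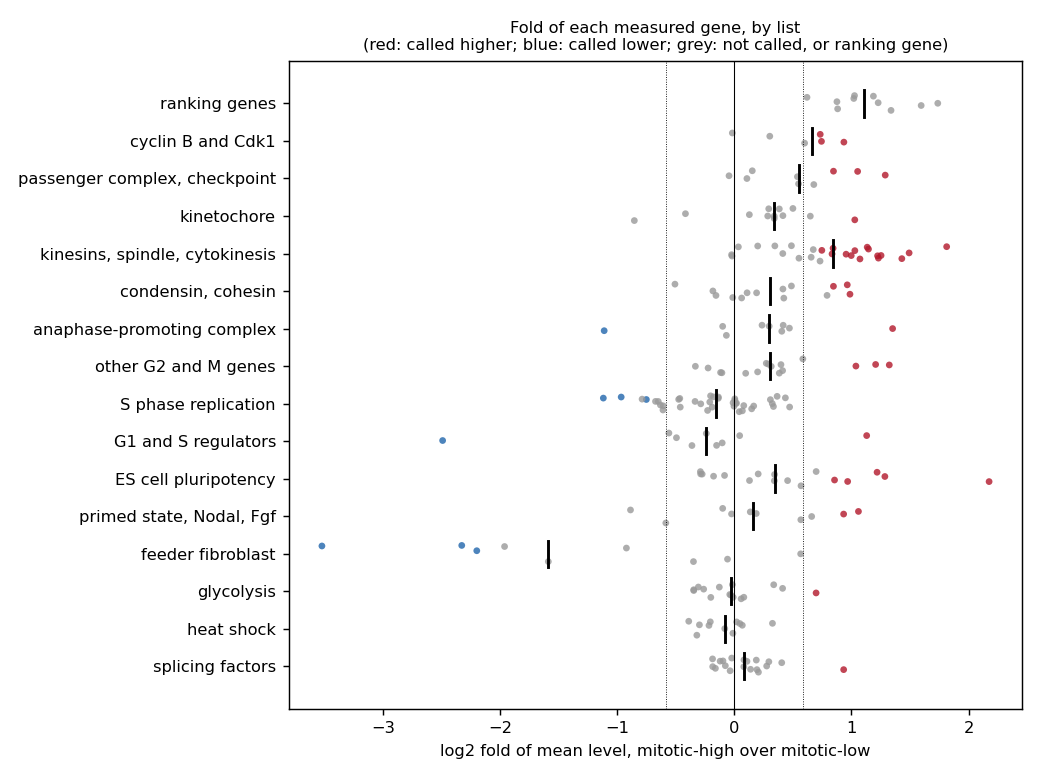
Log2 fold of the mean level in mitotic-high over mitotic-low wells for each counted gene, 1 row per gene list, with black bars at list medians and dotted lines at a 1.5-fold difference. Red points, genes called higher, gather in the rows of kinesins and spindle genes, the points of S phase replication lie mostly left of 0, and the feeder fibroblast row has a median fold of 0.33 with well D02 and 0.75 without it.

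Cyclin-dependent kinase 1, the kinase that drives entry into mitosis, followed the ranking most closely of its group. Cdk1 had levels of 2.58 to 6.25 (median 4.42) in mitotic-high wells and 0.69 to 4.85 (median 2.03) in mitotic-low wells. Most mitotic-high wells lay above most mitotic-low wells, the groups overlapped, and the mitotic-high well was above in 91.1% of pairs. Mean levels of 4.35 in mitotic-high wells and 2.25 in mitotic-low wells gave a fold of 1.91. The levels rest on 570 molecules in mitotic-high wells (95% exact Poisson interval 524.2 to 618.8) and 262 in mitotic-low wells (231.2 to 295.7). Intervals after molecule sums, here and below, cover counting error of the sum only and are not intervals of the fold. Its partner Ccnb2 (cyclin B2) was also higher, with medians of 1.72 in mitotic-high wells and 0.88 in mitotic-low wells and a fold of 1.67. Ccnb1 (cyclin B1) had medians of 7.005 in mitotic-high wells and 3.90 in mitotic-low wells, but only 13.1% of its molecules came from uniquely mapped reads, so its value is uncertain. Its fold was 1.66, and without D02 it was 1.56 but no longer passed without the highest mitotic-high well. Cks1b, a small subunit that binds the kinase, averaged 5.69 in mitotic-high wells and 5.76 in mitotic-low wells. In all 3 of 6 counted genes of this list were higher, against 5.63% over all genes, with a median fold of 1.59.

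Kinesins and genes of spindle assembly and cytokinesis had the largest median fold of the G2 and M lists, at 1.79. Of 26 counted genes 15 were higher and none was lower, against 5.63% and 3.42% over all genes. Without D02, 13 were higher. Kif15 (fold 1.78, and 1.70 without D02) and Kif20b (1.68, and 1.58 without D02) then no longer passed with the highest mitotic-high well left out too. Ect2, an exchange factor that starts the cleavage furrow, had levels of 0.39 to 2.41 (median 0.86) in mitotic-high wells and 0 to 0.99 (median 0.22) in mitotic-low wells. It was detected in 13 mitotic-high and 10 mitotic-low wells, with 158 molecules in mitotic-high wells (134.3 to 184.6) and 36 in mitotic-low wells (25.2 to 49.8), and its mean levels gave a fold of 3.51. Anln, which ties actin to the contractile ring, was at 0.22 to 2.52 (median 1.01) in mitotic-high wells and 0 to 1.08 (median 0.31) in mitotic-low wells, a fold of 2.81. These were the 2 largest folds of the list.

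Kif23, the motor of centralspindlin, averaged 1.42 in mitotic-high wells and 0.50 in mitotic-low wells, and was at 0 in at least 1 well of each group. Prc1, which bundles midzone microtubules, had a fold of 2.10. Hmmr, a spindle assembly protein, had levels of 1.18 to 4.21 (median 2.78) in mitotic-high wells and 0.36 to 3.27 (median 1.01) in mitotic-low wells, a fold of 2.35, and the mitotic-high well was above in 91.1% of pairs. Nusap1 (2.33), which binds spindle microtubules, the microtubule polymerase gene Ckap5 (2.38), the chromosome-bound kinesin gene Kif22 (2.21), Ckap2 (2.20), the bipolar spindle motor gene Kif11 (2.04) and the importin gene Kpna2 (2.00) were higher as well. The abundant tubulin genes did not follow: Tuba1b averaged 22.4 in mitotic-high wells and 22.7 in mitotic-low wells, with 14.6% of its molecules from unique reads, and Tubb5 averaged 19.001 in mitotic-high wells and 16.5 in mitotic-low wells.

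**Figure D3:**
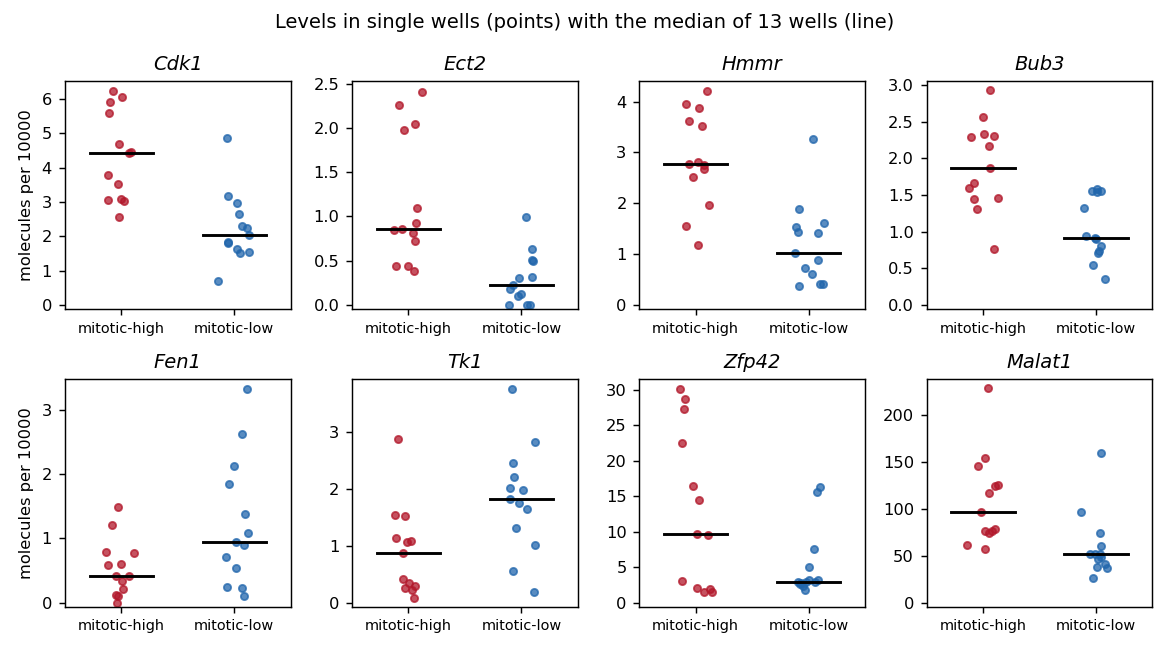
Level (molecules per 10000 gene molecules) of 8 genes in each mitotic-high well (red) and each mitotic-low well (blue), with the median of 13 wells as a line. Cdk1, Ect2, Hmmr and Bub3 are higher, Fen1 and Tk1 lower, and Zfp42 and Malat1 higher in mitotic-high wells, with overlapping wells in every panel.

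Among genes of the chromosomal passenger complex and the spindle checkpoint, 3 of 9 counted genes were higher, against 5.63% over all genes. The median fold was 1.46. Bub1b, a checkpoint kinase-like protein, averaged 1.06 in mitotic-high wells and 0.41 in mitotic-low wells, a fold of 2.44. Incenp, the scaffold of the passenger complex, had a fold of 2.07. Bub3, a shared partner of the checkpoint proteins, had levels of 0.77 to 2.92 (median 1.86) in mitotic-high wells and 0.35 to 1.58 (median 0.91) in mitotic-low wells, and the mitotic-high well was above in 86.98% of pairs. Of the other subunits of the passenger complex, Cdca8 averaged 3.09 in mitotic-high wells and 2.10 in mitotic-low wells, and Birc5 averaged 2.72 in mitotic-high wells and 2.44 in mitotic-low wells. Neither passed.

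The 12 counted kinetochore genes had a median fold of 1.27, and without D02 Cenpq passed as lower. Spc24 averaged 3.59 in mitotic-high wells and 2.92 in mitotic-low wells, and Cenpw averaged 1.29 in mitotic-high wells and 1.73 in mitotic-low wells. Among condensin and cohesin genes 3 of 14 were higher, against 5.63% over all genes. These were the condensin genes Smc4 (fold 1.98) and Ncaph (1.95) and the cohesin gene Rad21 (1.80). Smc2 (1.08) and Smc3 (1.04) were close to equal. In the anaphase-promoting complex Cdc27 was higher (2.55) and Cdc26, with 22.2% unique reads, was lower (0.46). The centrosome list had 2 counted genes and the list of G2 and M transcription regulators had 3, and none of these passed.

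Other G2 and M genes included 3 higher among 16, against 5.63% over all genes. Cdca2, which brings phosphatase to anaphase chromosomes, averaged 0.99 in mitotic-high wells and 0.36 in mitotic-low wells (fold 2.50). Arl6ip1, a membrane protein of the endoplasmic reticulum, had levels of 0.58 to 3.92 (median 1.98) in mitotic-high wells and 0.30 to 1.98 (median 0.90) in mitotic-low wells, a fold of 2.31. G2e3, a ubiquitin ligase gene named for G2 and M, had a fold of 2.05. The abundant chromatin genes of this list did not pass: H2afz, a histone H2A variant, averaged 30.8 in mitotic-high wells and 36.01 in mitotic-low wells, and Hmgb2 averaged 13.4 in mitotic-high wells and 12.5 in mitotic-low wells.

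Most counted genes of DNA replication did not pass. Of 38 counted S phase genes 0 were higher and 3 (7.89%) were lower, against 5.63% and 3.42% over all genes, and 15 had folds above 1. The median fold was 0.90, or 0.85 without D02, and scaling by spike-in molecules gave 0.95 with 2 lower genes. Fen1, the nuclease that trims Okazaki fragments, had levels of 0 to 1.48 (median 0.41) in mitotic-high wells and 0.09 to 3.32 (median 0.94) in mitotic-low wells. Its sums were 75 molecules in mitotic-high wells (58.99 to 94.01) and 149 in mitotic-low wells (126.04 to 174.9), and its mean levels gave a fold of 0.46. Tk1, the thymidine kinase of S phase, was at 0.08 to 2.88 (median 0.88) in mitotic-high wells and 0.18 to 3.76 (median 1.82) in mitotic-low wells, a fold of 0.51. Rpa2, of the single-strand binding complex, averaged 0.58 in mitotic-high wells and 1.01 in mitotic-low wells. For each of these genes the groups overlapped widely, and the mitotic-high well was above in 20.1% to 27.8% of pairs.

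Leaving out D02 brought the lower S phase genes to 8, with Gmnn, Rrm2, Slbp and Uhrf1 among those added, whose folds with D02 were between 0.58 and 0.65. Of all 2830 genes then counted, 83 were lower. The summed level of the whole S phase list was 51.9 to 87.2 (median 74.9) in mitotic-high wells and 29.5 to 96.3 (median 90.4) in mitotic-low wells, with the lowest of these sums in D02. Of the most abundant members, Nasp, a histone chaperone, averaged 12.9 in mitotic-high wells and 12.8 in mitotic-low wells (fold 1.00), and Dut, which removes dUTP, averaged 5.49 in mitotic-high wells and 6.32 in mitotic-low wells (fold 0.87). Over the 39 ranked wells, the summed level of the S phase list had a Spearman correlation of −0.42 with the ranking sum, and that of the other G2 and M genes one of 0.60. These describe wells whose levels share 1 total each. Among 9 regulators of G1 and S entry, Dbf4, the activator of the kinase Cdc7, was higher, with medians of 1.40 in mitotic-high wells and 0.63 in mitotic-low wells (fold 2.19). Ccnd2 was lower (0.18), with levels of 5.24 in D02 and 4.72 in the next highest mitotic-low well. Without D02 its fold was 0.26, but its mean level was then under the minimum. With that next well also left out the fold was 0.52. It was detected in 10 mitotic-high and 8 mitotic-low wells, and the mitotic-high well was above in 39.3% of pairs. Cdk4 averaged 3.43 in mitotic-high wells and 4.05 in mitotic-low wells, and Ccnd1 averaged 2.13 in mitotic-high wells and 2.76 in mitotic-low wells.

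Some pluripotency genes were higher in the mitotic-high wells. Of 17 counted genes 5 (29.4%) were higher and 0 lower, against 5.63% and 3.42% over all genes, with a median fold of 1.27, or 1.20 without D02. Zfp42 (Rex1), a marker of the naive state, had levels of 1.49 to 30.1 (median 9.67) in mitotic-high wells and 1.78 to 16.3 (median 2.93) in mitotic-low wells, a fold of 2.44. Its levels varied widely within every group, with 1.81 to 22.6 (median 2.93) in the middle wells. The mitotic-high well was above in only 63.3% of pairs. Fbxo15, an F-box gene active in ES cells, had 112 molecules in mitotic-high wells and 20 in mitotic-low wells, with 5.81 as its highest level in a mitotic-high well. Its fold of 4.51 was 2.58 without that well. Klf2, a naive state factor, had a fold of 2.33 and Gdf3, a ligand of the TGF-beta family, one of 1.96. Klf4 was at 1.81, with 38.7% unique reads. Without D02 its fold was 1.68, and it no longer passed with the highest mitotic-high well left out too.

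The core factors did not pass. Pou5f1 had median levels of 2.30 in mitotic-high wells and 1.64 in mitotic-low wells, and Sox2 had medians of 0.77 in mitotic-high wells and 0.54 in mitotic-low wells. Nanog and Sall4 went the other way by medians. Nanog had medians of 0.49 in mitotic-high wells and 0.66 in mitotic-low wells, though the fold of its means was 1.62. Sall4 had medians of 0.42 in mitotic-high wells and 1.06 in mitotic-low wells (fold 0.83). Dppa5a, the most abundant of the list, averaged 87.2 in mitotic-high wells and 63.6 in mitotic-low wells, a fold of 1.37. Among 10 genes of the primed state and of Nodal and Fgf signalling, Id3, a target of BMP signalling, had medians of 1.84 in mitotic-high wells and 0.59 in mitotic-low wells (fold 2.08). Etv5, an Fgf target, was at 1.91 with 44.2% unique reads. Lefty1 averaged 4.07 in mitotic-high wells and 2.73 in mitotic-low wells and did not pass.

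Of 14 counted genes of chromatin and DNA methylation 2 were higher and 0 lower, of 19 splicing factor genes 1 was higher and 0 lower, and of 6 nuclear noncoding RNAs 1 was higher and 0 lower, against 5.63% and 3.42% over all genes. Malat1, an abundant noncoding RNA of the nucleus, had levels of 57.3 to 228.8 (median 96.8) in mitotic-high wells and 26.6 to 159.7 (median 51.6) in mitotic-low wells. The fold was 1.81 and the mitotic-high well was above in 86.4% of pairs. Tet1, which oxidises 5-methylcytosine, averaged 2.80 in mitotic-high wells and 1.42 in mitotic-low wells (fold 1.94). Eed, a core subunit of Polycomb repressive complex 2, had a fold of 1.92. Phc1, of Polycomb repressive complex 1 and from outside the lists, was at 0.82 to 3.69 (median 2.10) in mitotic-high wells and 0.18 to 2.21 (median 0.41) in mitotic-low wells, a fold of 2.63. Srsf11, a splicing factor, had medians of 3.00 in mitotic-high wells and 1.82 in mitotic-low wells. These genes passed without D02 too.

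Outside the lists, the higher genes with the largest folds were led by Dqx1, at 12.9, which rested largely on well H04 with a level of 35.1, and its fold without that well was 1.74. Xrcc5, the Ku80 subunit that binds DNA ends, averaged 1.31 in mitotic-high wells and 0.51 in mitotic-low wells (fold 2.44). Anxa7, an annexin, had medians of 1.20 in mitotic-high wells and 0.24 in mitotic-low wells (fold 2.76). Apoe, a lipid carrier, was at 0.58 to 21.1 (median 2.63) in mitotic-high wells and 0.38 to 3.10 (median 1.58) in mitotic-low wells. Rarg, a retinoic acid receptor gene, had a fold of 2.49. Tm7sf3 (3.13), Lactb2 (2.78) and 0610009B22Rik (2.45) completed the group together with Gm1821_loc1, which had no unique reads.

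Some of the lower genes lost the call without D02. Anxa5, Acta2, Timp1, Serpine2, Anxa1, Tpm1 and Rhoc were among the 10 largest folds called lower outside the lists, with folds of 0.13 to 0.35, and all 7 lost the call without D02. Their folds without D02 were 0.25 to 0.66, still past 1.5-fold. Tpm1 and Rhoc then failed when the next highest mitotic-low well was left out as well, and the other 5 fell below the minimum mean level of 0.5. With that next well also left out, the folds of Anxa5 (0.90), Acta2 (0.85) and Anxa1 (0.83) were under 1.5-fold. Those of Timp1 (0.66) and Serpine2 (0.58) were still past it. Anxa5 had a level of 24.8 in its highest mitotic-low well, against at most 0.55 in mitotic-high wells. In the feeder fibroblast list, Tnc (0.09), Tagln (0.20) and S100a6 (0.22) were lower among 9 counted genes, against 3.42% lower over all genes. The list's median fold was 0.33 with D02 and 0.75 without it, and Tagln alone passed without it (fold 0.49). The part of D02's other markers in these values was not tested beyond leaving the well out.

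The other 3 of those 10 genes stayed lower without D02. Reep5, which shapes tubules of the endoplasmic reticulum, had levels of 0.08 to 0.88 (median 0.22) in mitotic-high wells and 0.20 to 4.07 (median 0.88) in mitotic-low wells, a fold of 0.28, and the mitotic-high well was above in 10.1% of pairs. Mest, an imprinted gene, was at 0 to 0.60 (median 0.31) in mitotic-high wells and 0.22 to 3.91 (median 0.69) in mitotic-low wells (fold 0.35). Cdkn1c, which encodes the cell cycle inhibitor p57, was detected in 8 mitotic-high and 10 mitotic-low wells, with 28 molecules in mitotic-high wells (18.6 to 40.5) and 103 in mitotic-low wells (84.1 to 124.9). Its levels were 0 to 0.82 (median 0.09) in mitotic-high wells and 0 to 5.20 (median 0.40) in mitotic-low wells. Much of the mitotic-low mean came from F10 (5.20) and the next well (2.97), and the mitotic-high well was above in 31.7% of pairs. Hprt, an enzyme of purine salvage, averaged 1.84 in mitotic-high wells and 3.48 in mitotic-low wells (fold 0.53) and also stayed lower.

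Median total RNA differed little between the ends of the ranking. The wells had already been chosen for at least 53000 gene molecules and at most 30000 spike-in molecules. This choice limited how far their totals could differ. Gene molecules per spike-in molecule ran from 10.996 to 14.9 (median 12.2) in mitotic-high wells and from 8.31 to 13.9 (median 12.2) in mitotic-low wells, with a median of 14.3 in the middle wells. The means were 12.7 in mitotic-high wells and 11.8 in mitotic-low wells, or 12.1 in the latter without D02. The ratio of medians was 1.00, and stayed between 0.98 and 1.02 when each well was left out in turn. With scaling by spike-in molecules the median fold over all counted genes was 1.07. Across the 39 wells the ranking sum had a Spearman correlation of 0.15 with this ratio and 0.16 with gene molecules, which enter the sum as its denominator. The number of genes detected after each well was thinned to 55334 gene molecules had medians of 5756 in mitotic-high wells and 5616 in mitotic-low wells. Without thinning, the medians were 6717 genes in mitotic-high wells and 6508 genes in mitotic-low wells.

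Spike-ins came with the lysis mix and were run through the same rule. Of 26 spike-ins with at least 4.84 molecules per well, with each well scaled to the same sum of spike-in molecules, 0 were higher and 0 lower, and their folds ran from 0.56 to 1.62 with a median of 0.98. Both ends of that range were past 1.5-fold and were not called only because of the single-well condition. They were spike-ins with few molecules (means of 5.6 and 10.5), as the plot of fold against abundance shows. With a minimum mean level of 1, 1529 genes were counted, and 60 were higher and 41 lower. Higher genes had longer transcripts, with a median of 3238 bases, against 1569 bases in lower genes and 2141 bases in all genes counted, and 18 of the 158 higher genes had under 50% unique reads. The part of transcript length in the calls was not tested.

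**Figure D4:**
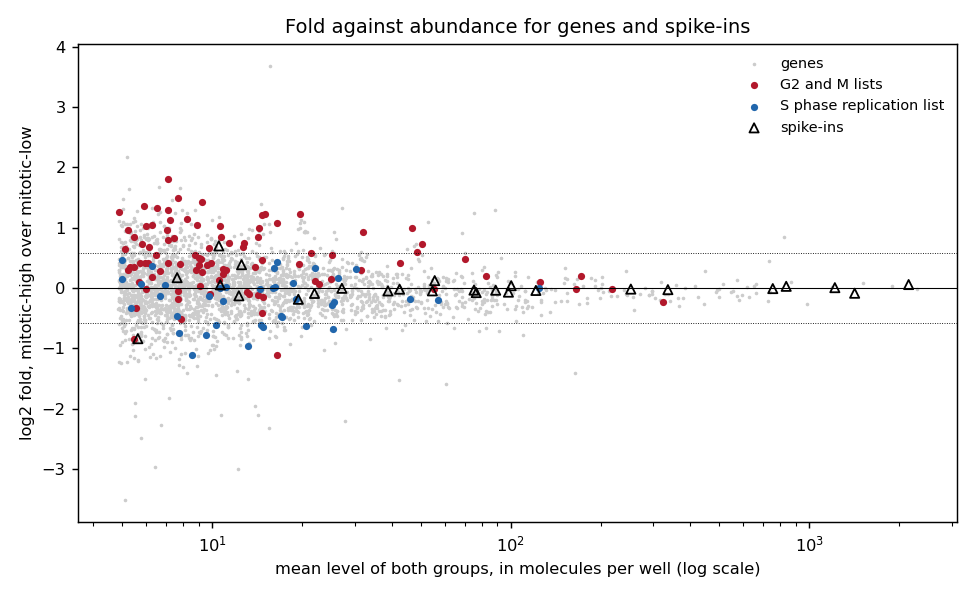
Log2 fold of mitotic-high over mitotic-low wells (vertical axis) against the mean level of both groups, given in molecules per well (log scale), for all counted genes in grey, G2 and M list genes in red, S phase replication genes in blue and spike-ins as triangles. Folds widen towards rare genes and rare spike-ins, most red points lie above 0, and the dotted lines mark a 1.5-fold difference.

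Repeat transcripts, grouped by type over both strands, were set beside the same rule. Of 342 types counted, 25 (7.31%) were higher and 2 (0.585%) were lower in mitotic-high wells, and the median fold was 1.20, or 1.18 without D02. Total repeat molecules per gene molecule went the other way, with medians of 0.91 in mitotic-high wells and 0.96 in mitotic-low wells. The abundant B1 to B4 elements had a median fold of 1.03 over 17 types and L1 elements one of 1.22 over 47 types. The spliceosomal RNA type U1 had levels of 0.44 to 25.96 (median 6.69) in mitotic-high wells and 0 to 13.8 (median 1.81) in mitotic-low wells, a fold of 2.98, and U2 had a fold of 2.10. The endogenous retrovirus types MMVL30-int (3.47) and RLTR1B-int (2.55) were higher, while RLTR11A was lower (0.55). The 4.5S RNA type averaged 1142 in mitotic-high wells and 616.6 in mitotic-low wells, but its wells overlapped almost fully, at 56.8% of pairs.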

How the data were processed

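Values were molecule counts per feature and well, as deposited by the authors in 1 table of 96 wells, and each well belongs to both library forms (21 PCR cycles, and 9 more), so these were not compared. Per the submitters' processing notes reads were mapped with Bowtie to mm10 (GRCm38). Per the file headers, reads matching several places were given to the exonic match nearest the 5′ end and counted, making up 26.7% of gene molecules, and the table gives transcript length in bases. Counting strand for genes is not given in the sources used here. Of 25914 features, 24264 were genes, 96 spike-ins and 1554 repeat types. Levels, folds, exact Poisson intervals at 95% (counting error only) and shares of well pairs were computed with Python 3.11.15, numpy 2.4.6, pandas 2.3.3 and scipy 1.17.1. No doublet caller was run, and chamber images were not used here. Named genes were the ranking genes, up to 5 called genes with the largest folds and the 2 with the highest levels of each list, and the 10 largest folds in each direction outside the lists; a few others are named to complete a count or to describe D02. Members and lists were chosen with earlier results of these data known. The share of well pairs and the omission of D02 with A03 were added after the values were seen. Some results are not reported here.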

Additional observations from a re-analysis of the deposited data

How the results depend on the processing

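Counts of called genes depended on the minimum level, the added constant, the fold and the single-well condition. They were 60 higher and 41 lower with a mean level of at least 1, 1003 and 541 with no minimum, 49 and 19 with 0.5 added to the levels, 27 and 11 at 2-fold, and 259 and 197 without the single-well condition. Splitting the ranking in the middle, with no middle group, gave 86 higher and 62 lower genes, scaling by spike-in molecules left 53 lower genes, and medians over wells gave 172 lower genes. The cause was not tested except where fewer or more genes were counted by construction. Leaving out each of 26 wells in turn gave 131 to 172 higher and 80 to 113 lower genes. Similar counts did not mean the same genes. Thinning each well to 53975 gene molecules gave 165 higher and 108 lower genes, but shared only 111 of the 158 higher and 78 of the 96 lower genes. Ranking without Top2a shared 107 and 62 of them, and splitting the ranking in the middle shared 75 and 45. The median fold of the other G2 and M genes stayed above 1 (1.22 to 1.54) and that of the S phase genes below 1 (0.83 to 0.95) in every setting that gave one. Without D02 and A03, an alternative chosen after seeing the data, 139 genes were higher and 85 lower. No paired analysis was possible because the wells carry no shared replicate number. Depth limits single rare genes: at a level of 0.5 a well holds about 4.84 molecules.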

Other observations

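Few genes of the lists for metabolism and basic functions passed. Over all counted genes 5.63% were higher and 3.42% lower. The lower share was 4.65% for proteasome genes and 1.32% for respiratory chain genes. Of 43 counted proteasome genes none was higher and 2 were lower, the assembly chaperone gene Psmg3 (fold 0.49) and Psmd10 (0.54), 14 had folds above 1, and the median fold was 0.89, or 0.97 when scaled by spike-in molecules. Psmd10 was at 0.60 without D02 and lost the call through the single-well condition. Of 76 nuclear genes of the respiratory chain 1 was lower, Cox17, which delivers copper to cytochrome oxidase (0.63). Its fold was 0.64 without D02, where it lost the call through the single-well condition. The list had 24 folds above 1 and a median of 0.94, and 1.01 when scaled by spike-in molecules. None of 28 mitochondrially encoded genes, 11 heat shock genes, 11 immediate early genes or 13 Hist cluster histone genes passed in either direction.

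Among 15 glycolysis genes 1 (6.67%) was higher and 0 lower, against 5.63% and 3.42% over all genes. This was the glucose transporter gene Slc2a3. Its levels were 3.43 to 9.59 (median 5.76) in mitotic-high wells and 1.27 to 9.07 (median 3.64) in mitotic-low wells. It had a fold of 1.62, and without D02 one of 1.54 that failed the single-well condition. Gapdh averaged 41.6 in mitotic-high wells and 49.9 in mitotic-low wells. The sterol enzyme gene Cyp51 was lower (0.53), and without D02 it was at 0.58 and failed the single-well condition. Of 7 targets of p53, Gtse1, which is also a G2 gene and sits on the spindle list, was higher (1.79). Of 89 counted genes with names of the Rpl and Rps type, mostly ribosomal protein genes, 2 (2.25%) were higher and 2 (2.25%) lower. Over all genes the shares were 5.63% and 3.42%. The names also take in kinase genes such as Rps6ka6, which was 1 of the 2 lower genes (0.49). Rps4x, 1 of the higher genes (1.88), had 3.66% unique reads, and the median fold of the set was 0.99.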
